A study of Mus musculus with 41 samples.

Results

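Cerebellum was compared between mice with an astrocytic Yy1 knockout (cKO) and mice with floxed Yy1 alleles. The comparison took the 7 cKO and the 7 floxed libraries labelled cerebellum, 14 of the 41 libraries of the series, and was repeated without 1 library whose values went against its label. Polyadenylated RNA was sequenced from the whole cerebellum of each animal, 1 library per animal. All mice were C57BL/6J, aged 12 weeks, and all carried Yy1 alleles that Cre recombinase can excise. The cKO mice carried in addition a GFAP-cre transgene, so Cre was driven by the promoter of an astrocyte filament gene. Such promoters can also be active in neural progenitors during development, and which cells had recombined was not measured. No group carried Cre without floxed Yy1, so the deletion and the presence of Cre cannot be told apart. The series title names brain development, apoptosis, oxidative stress and inflammation, and the gene lists below were grouped around these questions and around the cell types of the cerebellum.

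Yy1 (yin yang 1) is a zinc finger transcription factor that activates or represses genes and works with the INO80 chromatin remodeller and with Polycomb proteins. In the cerebellum the main astrocytes are Bergmann glia, whose radial fibres wrap the dendrites and synapses of Purkinje cells, clear glutamate from them and guide granule neurons during development. Velate astrocytes surround the granule neurons of the inner layer. Purkinje cells send Sonic hedgehog to granule cell precursors in development and to Bergmann glia in the adult. Reactive astrocytes raise Gfap and Serpina3n, and activated microglia, the resident macrophages of the brain, raise complement, Fc receptor and antigen presentation genes.

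The tissue label was checked first. Gabra6, a GABA receptor subunit of cerebellar granule neurons, had values of 3121 to 11965 in all 14 cerebellum libraries and of at most 288 in the midbrain and cortex libraries. Library totals were nearly equal, at 21.5 to 23.8 M normalised units, where M is mega, because the deposited values were already normalised. Sequencing depth, estimated from the steps between low values, was 18.6 to 70.3 M reads in floxed libraries (median 28.8 M) and 6.82 to 33.2 M in cKO libraries (median 16.1 M). The cKO libraries were lower by -0.77 in mean log2 reads (two-sided exact permutation p = 0.0559), and by -0.56 without the library labelled floxed 6 (exact permutation p = 0.112). Of the 6 libraries labelled female, 3 had almost no Xist (at most 22.1, against at least 8232 in the others), so no comparison of sexes was made. The 3 were floxed 5, the library labelled floxed 6 and cKO 7, with the Y chromosome gene Ddx3y at 1019, 903 and 543. Labelled sex stayed the covariate, and with Xist in its place 2974 genes were higher and 3027 lower in cKO.

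One library went against its label. At the 6313 genes called without it, the library labelled floxed cerebellum 6 lay nearer the cKO mean than the floxed mean at 68.4%, and at 83.8% of the 1801 genes with a fold of 2 or more. The other floxed libraries, each judged by genes called without it, lay nearer the cKO mean at 2.47% to 16.1% of genes. Among cKO libraries 14.2% to 42.2% of genes lay nearer the floxed mean, with cKO 6 the highest. The midbrain and cortex libraries of the same number lay nearer the cKO mean at 55.3% and 46.3% of the genes called in their regions. No other midbrain or cortex library was judged in this way, so these shares have no baseline. The library was also the deepest, with 70.3 M estimated reads. Its Xist (8.36) and Ddx3y (903) values also went against its female label, as did those of floxed 5 and cKO 7. The labels give no other genotype for the animal, so the library stayed in its labelled group. It was singled out because its Gfap and Yy1 values lay among those of cKO libraries, so larger changes of these genes without it follow from that choice. The counts over all genes, most leading genes and several list medians are given with and without it, and the other values with all 14 libraries.

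**Figure D1:**
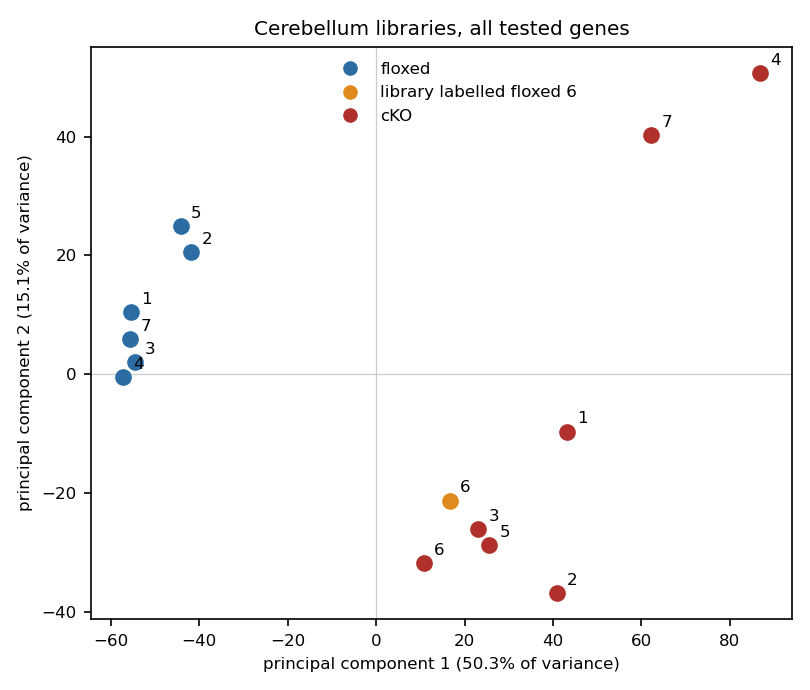
Principal components of the 14 cerebellum libraries over all tested genes on the log2(value + 1) scale, with component 1 (50.3% of variance) on the horizontal axis and component 2 (15.1%) on the vertical axis; numbers are replicate numbers. The other 6 floxed libraries sit between -57.2 and -41.9 on component 1, the library labelled floxed 6 at 16.7 and the cKO libraries between 10.8 and 86.9, with cKO 4 and cKO 7 apart at 50.7 and 40.2 on component 2.

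Of 15334 genes tested, 2968 rose (19.4%) and 3012 fell (19.6%) in cKO cerebellum, 5980 in all, at a limma adjusted p under 0.05 with no fold minimum. Without the library labelled floxed 6, 3100 of 15236 genes rose (20.3%) and 3213 fell (21.1%), and 5675 genes were called with the same sign in both. That is 94.9% of the first list and 89.9% of the second. At a fold of 2 or more the split was uneven, with 1116 genes higher and 426 lower, or 1261 and 540 without that library. Scaling to equal library totals gave 3756 higher and 2175 lower genes, so that 63.3% of calls were rises in place of 49.6%. The median log2 fold of all tested genes was -0.01, and 0.06 under that scaling.

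Yy1 (GRCm38 chromosome 12, 108792973 to 108820148, plus strand) had normalised values of 881 to 1348 (median 1169) in the other 6 floxed libraries, 585 in the library labelled floxed 6 and 499 to 683 (median 556) in the 7 cKO libraries. Every cKO library lay below every other floxed library, and the library labelled floxed 6 lay inside the cKO range. The log2 fold of Yy1 was -0.86 (SE 0.15, adjusted p = 0.00114), and -0.997 without the library labelled floxed 6. Reads over the whole of Yy1 are summed in these values, whichever exons were removed, and cells without Cre contribute to them. Of 25 tested members of the list of Yy1, INO80 and Polycomb partners, Yy1 included, 5 rose and 4 fell, against 19.4% and 19.6% of all genes, with a median log2 fold of -0.04. Rybp, which links Yy1 to Polycomb proteins, fell (log2 fold -0.60 with SE 0.13, adjusted p = 0.00373), and its homologue Yaf2 fell by less (log2 fold -0.27, adjusted p = 0.0140), a call lost under scaling to totals. The INO80 subunits Nfrkb (0.29), Ino80b (0.46), Ino80e (0.33) and Uchl5 (0.29) rose, while the catalytic Ino80 (-0.09, adjusted p = 0.479) and the Polycomb methyltransferase Ezh2 (0.17, adjusted p = 0.243) did not pass the test. The count of rises in this list was 3 without cKO 4, cKO 7, floxed 1 or floxed 4 and 2 without floxed 3 or floxed 7.

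Gfap (GRCm38 chromosome 11, 102887336 to 102900912, minus strand), the intermediate filament gene whose promoter drives the Cre, had values of 4241 to 4786 (median 4507) in the other 6 floxed libraries, 25729 in the library labelled floxed 6 and 15071 to 63053 (median 34675) in the 7 cKO libraries. The groups did not overlap apart from that library, and the 6 other floxed libraries were tightly grouped while the cKO libraries spanned a wide range from cKO 6 to cKO 1. For Gfap the log2 fold was 2.55 (SE 0.42, adjusted p = 0.000884), and 2.95 without the library labelled floxed 6.

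**Figure D2:**
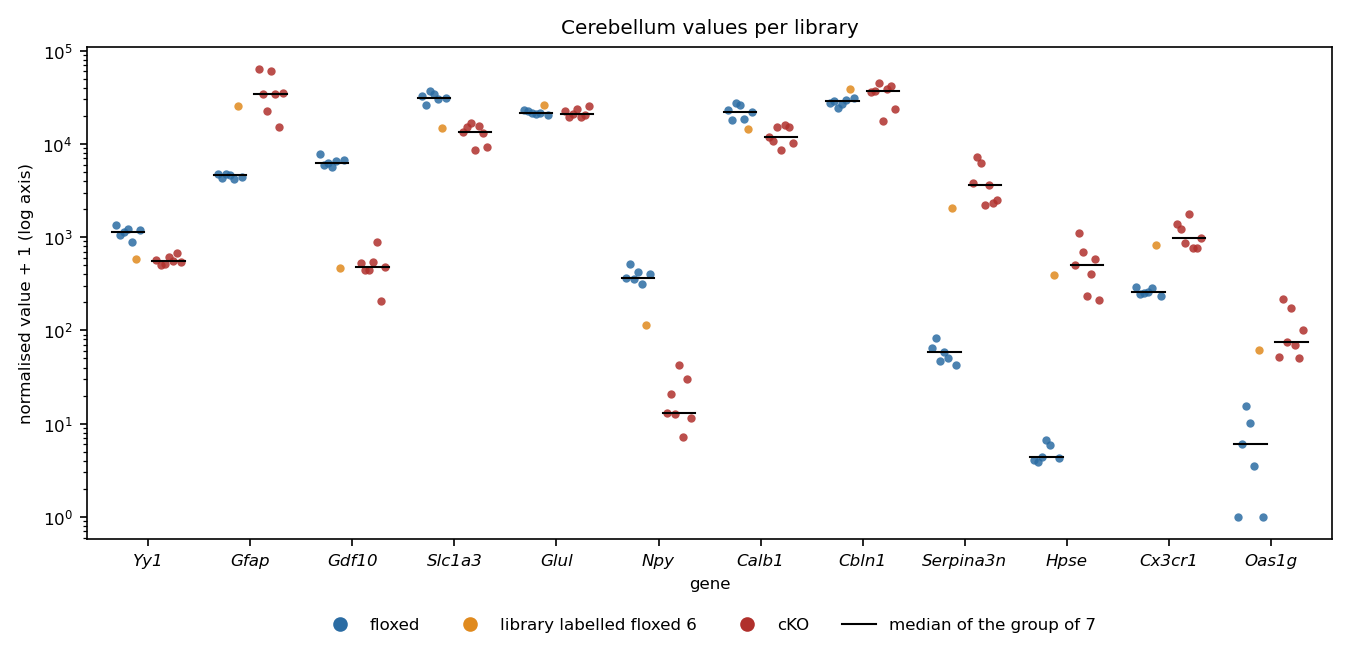
Normalised value + 1 of 12 genes (log axis) in each cerebellum library, with the floxed group on the left of each gene, the cKO group on the right and a line at the median of each group of 7. The orange library labelled floxed 6 sits among the cKO points for Yy1, Gdf10 and Hpse, while Glul and Cbln1 overlap between the groups.

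More than 1 in 2 genes of Bergmann glia and of astrocytes in general fell, while some common astrocyte markers did not pass the test. Of 20 tested Bergmann glia genes, 11 fell, 2 rose and 7 did not pass the test, with a median log2 fold of -0.90 (-1.002 without the library labelled floxed 6). Of 24 astrocyte markers, 16 fell, 1 rose and 7 did not pass, with a median of -0.62 (-0.72 without it). The astrocyte marker that rose was the lipoprotein gene Apoe. The count of rises there was 0 without cKO 1, cKO 5, cKO 7, floxed 1, floxed 2, floxed 3, floxed 4, floxed 5 or floxed 7 and 2 without cKO 3, cKO 4, cKO 6 or floxed 6. In bulk tissue, fewer cells of a type and less RNA per cell cannot be told apart. One member of the Bergmann glia list was not tested, because spreadsheet conversion had turned its name into a date.

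Gdf10 (GRCm38 chromosome 14, 33923587 to 33937983, plus strand), a ligand of the bone morphogenetic protein family made by Bergmann glia, had values of 5702 to 7722 (median 6392) in the other 6 floxed libraries, 465 in the library labelled floxed 6 and 204 to 897 (median 476) in the 7 cKO libraries. No cKO library came near the other floxed libraries, and the library labelled floxed 6 lay at the middle of the cKO range. The fitted log2 change of Gdf10 was -3.24 (SE 0.51, adjusted p = 0.000796), and -3.78 without the library labelled floxed 6. Npy (chromosome 6, 49822710 to 49829507, plus strand), a neuropeptide gene carried on the Bergmann glia list, had values of 315 to 512 (median 386) in the other 6 floxed libraries, 114 in the library labelled floxed 6 and 6.26 to 41.8 (median 12.0) in the 7 cKO libraries. Here the library labelled floxed 6 stood between the groups, and the log2 change of Npy was -4.30 (SE 0.37, adjusted p = 0.000144), and -4.51 without the library labelled floxed 6. Hopx, a homeodomain protein of Bergmann glia, ranged over 4731 to 6127 (median 5344) in the other floxed libraries and 1603 to 2471 (median 2243) in cKO libraries, with 2676 in the library labelled floxed 6. It fell by a log2 fold of -1.23 (SE 0.17, adjusted p = 0.000553). The growth factor receptor Fgfr3 (-1.65), the protease inhibitor A2m (-1.79), the matrix protein Tnc (-1.58) and the transcription factor Sox2 (-0.69) also fell. The adhesion receptor Adgrv1 went the other way, from a range of 30.5 to 69.8 (median 58.7) in the other floxed libraries to 131 to 216 (median 182) in cKO libraries (log2 fold 1.51 with SE 0.22, adjusted p = 0.000598). The other rise was the ETS factor Etv4 (0.40), and the number of rises was 1 without cKO 1, cKO 7, floxed 1 or floxed 7.

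The fatty acid binding protein gene Fabp7, a marker of Bergmann glia and of radial glia, was not among the falls. Its values were 831 to 1270.3 (median 1128) in the other 6 floxed libraries, 3614 in the library labelled floxed 6 and 1186 to 4775 (median 1517) in the 7 cKO libraries. Among the cKO libraries cKO 5 stood apart with the highest value, 6 of 7 lay above the other floxed libraries, and the log2 fold of 0.52 (adjusted p = 0.165) passed the test without the library labelled floxed 6 (0.73, adjusted p = 0.0339). The astrocyte gene Aldh1l1, a folate enzyme, lay at the threshold (0.30, adjusted p = 0.0504). It passed without the library labelled floxed 6 (0.36, adjusted p = 0.0146), without cKO 3, cKO 4 or cKO 6, and under scaling to totals (0.37). Glul, which encodes glutamine synthetase, ranged over 20550.2 to 22971 (median 21478) in the other floxed libraries and 19242 to 25416 (median 21106) in cKO libraries. The groups overlapped, the log2 fold was -0.04 (SE 0.08, adjusted p = 0.705), and its sign turned to 0.030 under scaling to totals. The calcium binding protein gene S100b split the cKO libraries, with 5 below and 2 above the other floxed libraries, over a range of 4095 to 16641 (median 6407) against 12670.2 to 15399 (median 13696). Its log2 fold of -0.64 (adjusted p = 0.109) passed the test without the library labelled floxed 6 (-0.83, adjusted p = 0.0321), cKO 4 or cKO 7. Aldoc (-0.15), Sox9 (-0.20) and Kcnj10 (-0.22) also did not pass (adjusted p = 0.322, 0.197 and 0.185).

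Among the genes that did fall were those for the glutamate transporters. Slc1a3 (GRCm38 chromosome 15, 8634124 to 8710764, minus strand), the main glutamate transporter of Bergmann glia, had values of 26474 to 36801 (median 32087) in the other 6 floxed libraries, 14709 in the library labelled floxed 6 and 8699 to 16696 (median 13298) in the 7 cKO libraries. For Slc1a3 the fitted log2 fold came to -1.16 (SE 0.20, adjusted p = 0.000983), and -1.31 without the library labelled floxed 6. Slc1a2, the second glial glutamate transporter, ranged over 12364 to 16431 (median 14020.0) and 3642 to 8975 (median 7546) (log2 fold -1.05 with SE 0.20, adjusted p = 0.00161), with every cKO library below every other floxed library. The list of glutamate and GABA cycle genes had 14 of 21 tested members lower and 1 higher (median -0.66), and the higher count was 2 without cKO 2. The glial GABA transporter Slc6a11 fell from a range of 1057 to 2339.5 (median 1636) in the other floxed libraries to 414 to 1058 (median 568.4) in cKO libraries (log2 fold -1.40). The GABA synthesis genes Gad1 (-1.09) and Gad2 (-0.82) and the vesicular transporter Slc32a1 (-0.72), which are neuronal, fell too. Slc38a3, a glutamine transporter of astrocytes, rose (0.79).

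Genes of the astrocyte endfoot, which contacts blood vessels, and of potassium and gap junction coupling included 8 lower and 1 higher of 16 tested (median -0.32). The lower count was 5 without floxed 7, and 4 under scaling to totals, and the higher count was 2 without floxed 6. The water channel Aqp4 had values of 5254 to 8577 (median 6761) in the other 6 floxed libraries, 3024 in the library labelled floxed 6 and 1451 to 4759.6 (median 3382) in the 7 cKO libraries. The fitted log2 change of Aqp4 was -1.05 (SE 0.19, adjusted p = 0.00126), and -1.15 without the library labelled floxed 6. The potassium channel Kcnj16 fell from a range of 614 to 987 (median 815) in the other floxed libraries to 92.2 to 148 (median 117) in cKO libraries (log2 fold -2.45 with SE 0.26, adjusted p = 0.000188), with no overlap. Gja1 (connexin 43) fell from a range of 3847 to 5506 (median 4945) in the other floxed libraries to 715 to 1691 (median 1156) in cKO libraries (log2 fold -1.80), and Gjb6 (connexin 30) by less (log2 fold -0.32). Gjb2 (connexin 26), which meningeal cells also express, rose from a range of 169.9 to 252 (median 217) in the other floxed libraries to 273 to 539 (median 384) in cKO libraries (log2 fold 0.88). The tight junction gene Cldn10 fell from a range of 419.8 to 564 (median 519) in the other floxed libraries to 74.2 to 124 (median 86.6) in cKO libraries (log2 fold -2.20 with SE 0.23, adjusted p = 0.000188).

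Several metabolic genes of cerebellar astrocytes fell. Dao (chromosome 5, 114003703 to 114025682, plus strand), which encodes the D-amino acid oxidase that degrades D-serine in cerebellar glia, had values of 2226 to 2879.8 (median 2594) in the other 6 floxed libraries, 178 in the library labelled floxed 6 and 45.3 to 230.0 (median 152) in the 7 cKO libraries. The library labelled floxed 6 lay within the cKO range, and the log2 change of Dao was -3.71 (SE 0.56, adjusted p = 0.000641), and -4.29 without the library labelled floxed 6. In the list of serine, glycine and D-amino acid genes, 5 of 14 fell and 1 rose (median -0.06). The glycine cleavage enzyme Gldc (-1.16) and the serine synthesis enzyme Phgdh (-0.68) fell, and Amt, another subunit of the glycine cleavage system, rose from a range of 781 to 996 (median 939) in the other floxed libraries to 1170.5 to 1658 (median 1362) in cKO libraries (log2 fold 0.55). The count of rises in that list was 2 without cKO 3, cKO 4 or floxed 6 and 3 without cKO 6. Of 26 glycogen, glycolysis and lactate genes 10 fell and 1 rose (median -0.23), the count of rises being 2 without cKO 4 or floxed 6. The muscle-type glycogen phosphorylase Pygm, which astrocytes express, fell from a range of 1714 to 2349.7 (median 2193) in the other floxed libraries to 328 to 801 (median 533) in cKO libraries (log2 fold -1.74 with SE 0.27, adjusted p = 0.000727). The glycogen targeting subunits Ppp1r3g (-2.19) and Ppp1r3c (-0.72) and the lactate transporter Slc16a1 (-0.53) fell as well. The glycolytic genes Gapdh (-0.01), Pkm (-0.03) and Pgk1 (0.08) did not pass the test (adjusted p = 0.960, 0.809 and 0.374).

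Single genes of fatty acid and sterol metabolism changed in both directions. Bbox1, the last enzyme of carnitine synthesis, fell from a range of 89.6 to 118 (median 107) in the other floxed libraries to 3.76 to 29.4 (median 12.8) in cKO libraries (log2 fold -2.62 with SE 0.42, adjusted p = 0.000834), and the acyl-CoA thioesterase Acot11 fell from a range of 1741 to 2218 (median 2012) in the other floxed libraries to 467 to 795 (median 608) in cKO libraries (log2 fold -1.43). The oxidation enzyme Acadvl rose (0.43), and the list of carnitine and fatty acid oxidation genes had 5 rises and 3 falls of 22 (median 0.04), near the 19.4% and 19.6% of all genes. Of 25 cholesterol genes 8 fell and 3 rose (median -0.23). Srebf2, which switches on cholesterol synthesis, fell from a range of 2685 to 3115 (median 2917) in the other floxed libraries to 1180.4 to 2349 (median 1923) in cKO libraries (log2 fold -0.66). The sterol sensor Nr1h3 rose from a range of 268 to 380.4 (median 305) in the other floxed libraries to 543 to 1160.1 (median 584) in cKO libraries (log2 fold 1.13), and the lipoprotein gene Apoe rose by 0.79. The call of Apoe was lost without cKO 1, cKO 5, cKO 7 or any 1 floxed library other than floxed 6. It was also lost with estimated reads as a covariate and with the replicate number as a block. In the cholesterol list the count of falls was 5 without cKO 3, floxed 1, floxed 2 or floxed 7 and 4 under scaling to totals, and that of rises was 5 without floxed 6.

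Secreted proteins by which astrocytes shape synapses and matrix fell more often than they rose, at 10 lower and 3 higher of 21 tested (median -0.41). Sparc, which restrains synapse formation, fell from a range of 23677 to 27185 (median 26674) in the other floxed libraries to 7812 to 14459.7 (median 8876) in cKO libraries (log2 fold -1.26 with SE 0.16, adjusted p = 0.000369), and Sparcl1 (hevin), which promotes it, from a range of 39482 to 47818 (median 43147) in the other floxed libraries to 19357 to 27435 (median 20877) in cKO libraries (log2 fold -0.83). The proteoglycan Cspg5 (-1.42), the glypican Gpc6 (-1.04), the engulfment receptor Megf10 (-1.31) and Chrdl1 (-0.99) fell. The proteoglycan Ncan (1.26) and the thrombospondin Thbs3 (0.80) rose.

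Most Purkinje cell genes fell. Of 24 tested, 21 fell, none rose and 3 did not pass the test, with a median log2 fold of -0.69 (-0.78 without the library labelled floxed 6). Calb1 (GRCm38 chromosome 4, 15881264 to 15908064, plus strand), a calcium buffer, had values of 18210.0 to 27548 (median 22458) in the other 6 floxed libraries, 14521 in the library labelled floxed 6 and 8618 to 15838 (median 11917) in the 7 cKO libraries. Its groups did not overlap apart from that library, and the log2 change of Calb1 was -0.78 (SE 0.17, adjusted p = 0.00352), and -0.87 without the library labelled floxed 6. Car8, a carbonic anhydrase homologue that binds the inositol trisphosphate receptor, fell from a range of 32800.3 to 48687 (median 40242) in the other floxed libraries to 15021 to 27629 (median 20468) in cKO libraries (log2 fold -0.84). The receptor gene Itpr1 (-0.93) and the Notch ligand-like Dner (-0.89) fell with it. Pcp2 (0.14), Pcp4 (0.15) and Aldoc did not pass. Pcp2 values overlapped fully, with 11569 to 14325 (median 12898) in the other floxed libraries and 7633 to 24655 (median 12763) in cKO libraries, and the sign of its log2 fold turned under 3 alternatives.

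Interneuron and unipolar brush cell genes fell as well, with 11 lower and 1 higher of 19 tested (median -0.79). The transcription factor Eomes, which marks unipolar brush cells, fell from a range of 498 to 894 (median 685) in the other floxed libraries to 199 to 289.9 (median 219.5) in cKO libraries (log2 fold -1.35 with SE 0.19, adjusted p = 0.000574), with the interneuron genes Kit (-1.497) and Sorcs3 (-1.40). Pvalb, a calcium buffer of Purkinje cells and interneurons, did not pass (-0.18, adjusted p = 0.571). Grm2, a glutamate receptor of Golgi cells, was the rise (0.33), and the count of rises was 0 without cKO 3, cKO 7, floxed 3 or floxed 5.

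Granule neuron genes, which mark the most numerous neurons of the tissue, were mostly not called. Of 23 tested, 5 fell (close to the 19.6% of all genes), 2 rose and 16 did not pass, with a median of -0.32. The count of falls was 3 without cKO 4, cKO 7, floxed 1, floxed 3, floxed 4 or floxed 7 and 9 without cKO 6. Cbln1, a secreted organiser of the synapse between granule neurons and Purkinje cells, overlapped between groups, at 24227 to 30729.7 (median 28337) and 17810.5 to 45396 (median 37259.8) (0.17, adjusted p = 0.485). Neurod1 also overlapped (-0.32, adjusted p = 0.380). Gabra6 was at 8630.4 to 11965 (median 10913) in the other floxed libraries and 3121 to 10480.0 (median 7140.1) in cKO libraries. Its log2 fold of -0.64 (adjusted p = 0.0427) lost its call without cKO 2, cKO 4, cKO 5, cKO 7, floxed 1, floxed 3, floxed 4, floxed 5 or floxed 7. Svep1, a secreted adhesion protein, fell from a range of 1254 to 1670.1 (median 1486) in the other floxed libraries to 410.0 to 935 (median 497) in cKO libraries (log2 fold -1.18 with SE 0.26, adjusted p = 0.00355), and the glutamate receptor Grm4 of parallel fibres rose from a range of 13265 to 18739 (median 14936) in the other floxed libraries to 15393 to 24060.0 (median 20804) in cKO libraries (log2 fold 0.39).

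Receptor genes for the main fast transmitters fell. AMPA and NMDA receptor subunits and their auxiliary proteins had 14 of 19 lower and none higher (median -0.67), with 1 higher without the library labelled floxed 6. Gria1 and Gria4, the AMPA subunits of Bergmann glia that other cells also express, had log2 folds of -1.32 and -1.32, and Gria1 went from a range of 11742 to 16279 (median 14356) in the other floxed libraries to 4223 to 6670.2 (median 4737) in cKO libraries. Shisa9 (chromosome 16, 11984113 to 12270902, plus strand), an auxiliary AMPA receptor protein, had values of 501 to 883 (median 752) in the other 6 floxed libraries, 178 in the library labelled floxed 6 and 54.1 to 126 (median 96.0) in the 7 cKO libraries. The groups did not overlap, and the log2 change of Shisa9 was -2.67 (SE 0.27, adjusted p = 0.000188), and -2.93 without the library labelled floxed 6. Grin2b fell (-1.29), while Grin2c, the NMDA subunit of mature granule neurons, did not pass (0.14, adjusted p = 0.557). Of 13 GABA-A receptor genes 8 fell and none rose (median -0.74), among them Gabrg1 (-1.28), a subunit enriched in Bergmann glia, and Gabra2 (-1.38). Immediate early genes, which follow neuronal activity and handling, had 8 of 18 lower and none higher (median -0.50), the count of rises being 1 without floxed 1. Fos fell from a range of 838 to 2518 (median 1724) in the other floxed libraries to 141 to 496 (median 329) in cKO libraries (log2 fold -1.96 with SE 0.34, adjusted p = 0.00110), with 186 in the library labelled floxed 6, and Egr4 fell as well (-1.54).

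Several Hedgehog response genes fell. Of 25 Sonic hedgehog and Notch genes 9 fell and 2 rose (median -0.11), the count of rises being 1 without cKO 2, cKO 3, floxed 1, floxed 3, floxed 4 or floxed 7. Shh, the ligand made by Purkinje cells, had a log2 fold of -0.98 (adjusted p = 0.00665). The receptor and response gene Ptch1 (-1.12), the response factor Gli1 (-1.66), the decoy receptor Hhip (-1.49), the co-receptor Gas1 (-1.002) and Mycn (-1.40) also fell. The signal transducer Smo (0.15) and the factors Gli2 (0.04) and Gli3 (-0.17) did not pass (adjusted p = 0.165, 0.851 and 0.562). The Notch target Hes5 (0.92) and the ligand Dll1 (1.09) rose, and the Notch targets Hey1 (-0.47) and Hey2 (-0.56) fell.

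Reactive astrocyte genes rose. Of 35 tested, 26 rose, 2 fell and 7 did not pass (median 1.36, and 1.501 without the library labelled floxed 6). The list holds interferon and antigen presentation genes as well, and several of its members are also made by microglia or vessel cells. Serpina3n (GRCm38 chromosome 12, 104406729 to 104414329, plus strand), a secreted serine protease inhibitor and a marker of reactive astrocytes, had values of 41.7 to 81.6 (median 53.9) in the other 6 floxed libraries, 2036 in the library labelled floxed 6 and 2233 to 7267 (median 3616) in the 7 cKO libraries. The lowest cKO library lay far above the highest of the other floxed libraries, and the log2 change of Serpina3n was 5.26 (SE 0.72, adjusted p = 0.000522), and 6.05 without the library labelled floxed 6. The intermediate filament gene Nes rose from a range of 290.4 to 472 (median 335) in the other floxed libraries to 611 to 965 (median 842) in cKO libraries (log2 fold 1.04 with SE 0.17, adjusted p = 0.000949), Timp1, an inhibitor of matrix proteases, rose by 2.54 and the sphingosine phosphate receptor S1pr3 by 2.03. Vim (0.24) and Lcn2 (1.83) did not pass (adjusted p = 0.365 and 0.251). Amigo2 and B3gnt5 fell (-1.05 and -1.29). In the STAT3 and gp130 list 7 of 18 rose and 4 fell (median 0.34), with falls near the 19.6% of all genes. Stat3 rose from a range of 1107 to 1219 (median 1141) in the other floxed libraries to 1432 to 2227 (median 1558) in cKO libraries (log2 fold 0.51), with its feedback inhibitor Socs3 (1.24) and the cytokine receptor Osmr (1.52), while the ciliary neurotrophic factor receptor Cntfr fell (-0.83).

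The 2 largest rises by log2 fold, among genes with a mean value of 50 or more, were of genes near 0 in floxed cerebellum. Car6 (GRCm38 chromosome 4, 150187015 to 150201332, minus strand), a secreted carbonic anhydrase best known from saliva, was listed at 0 to 0.810 in the other 6 floxed libraries, at 435 in the library labelled floxed 6 and at 35.9 to 546 (median 279) in cKO libraries. Every cKO library lay above the other floxed libraries, and the log2 change of Car6 was 6.00 (SE 1.11, adjusted p = 0.00145), and 7.17 without the library labelled floxed 6. That fold depends on the 1 added to each value, since most floxed values were 0. Hpse (chromosome 5, 100679484 to 100719716, minus strand), heparanase, which cleaves heparan sulfate in the matrix, had values of 2.85 to 5.65 (median 3.30) in the other 6 floxed libraries, 389.8 in the library labelled floxed 6 and 212 to 1096 (median 505) in the 7 cKO libraries. Its groups did not overlap apart from the library labelled floxed 6, and the log2 change of Hpse was 5.69 (SE 0.86, adjusted p = 0.000650), and 6.63 without the library labelled floxed 6.

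Microglial genes rose nearly as a whole. Of 16 homeostatic microglia genes 15 rose and none fell (median 1.304, and 1.54 without the library labelled floxed 6). Of 22 disease-associated microglia genes 18 rose and none fell (median 1.68). The summed values of the homeostatic list were 3316 to 3900.4 in the other 6 floxed libraries, 10384 in the library labelled floxed 6 and 9208 to 17474 in cKO libraries. Cx3cr1 (GRCm38 chromosome 9, 119901616 to 120069879, minus strand), the fractalkine receptor of microglia, had values of 234 to 292 (median 253) in the other 6 floxed libraries, 829.0 in the library labelled floxed 6 and 764 to 1754 (median 968) in the 7 cKO libraries. For Cx3cr1 the fitted log2 fold came to 1.78 (SE 0.28, adjusted p = 0.000726), and 2.05 without the library labelled floxed 6. The growth factor receptor Csf1r rose from a range of 633 to 843 (median 793) in the other floxed libraries to 1865 to 2835 (median 2369) in cKO libraries (log2 fold 1.44 with SE 0.23, adjusted p = 0.000831), Fcrls by a log2 fold of 2.44 and P2ry12 by 0.52, and Slc2a5 did not pass (0.30, adjusted p = 0.273). Cst7 (chromosome 2, 150570415 to 150578944, plus strand), which encodes the lysosomal protease inhibitor cystatin F, had values of 1.01 to 3.22 (median 2.18) in the other 6 floxed libraries, 67.5 in the library labelled floxed 6 and 29.5 to 392 (median 89.6) in the 7 cKO libraries. The fit gave Cst7 a log2 change of 4.53 (SE 0.80, adjusted p = 0.00115), and 5.26 without the library labelled floxed 6. Itgax (CD11c), an integrin of activated microglia and dendritic cells, rose from a range of 0.696 to 6.18 (median 3.06) in the other floxed libraries to 53.4 to 252 (median 121) in cKO libraries (log2 fold 4.28 with SE 0.67, adjusted p = 0.000721), with 70.6 in the library labelled floxed 6. The phagocyte receptor Clec7a (3.89), Gpnmb (3.58), Trem2 (2.44) and its adaptor Tyrobp (2.28) rose, and Igf1 (0.15) and Axl (0.26) did not pass (adjusted p = 0.719 and 0.0928).

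Genes of border macrophages and blood leukocytes were measured beside them. Of 12 tested, 9 rose and none fell (median 1.33), among them the scavenger receptor Cd163 from a range of 17.6 to 24.7 (median 21.3) in the other floxed libraries to 61.6 to 107 (median 84.7) in cKO libraries (log2 fold 1.68), Ms4a7 (2.99) and the pan-leukocyte gene Ptprc (1.97), which microglia also express. The defining genes of T cells were low. Cd3e reached at most 2.05 and 34.0 in floxed and cKO libraries and was at 10 or more in 1 library, and Cd8a at most 3.29 and 19.2. Ly6c2, a further untested member of the list, was higher in cKO libraries, at 9.17 to 152. It reached at most 7.06 in the other floxed libraries and 9.68 in the library labelled floxed 6, and 10 or more in 6 libraries. Neutrophil genes S100a8 (-0.03) and S100a9 (0.17) did not pass the test (adjusted p = 0.979 and 0.860). The part of incoming leukocytes in the microglial and immune rises was not tested.

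Complement and Fc receptor genes all rose, 20 of 20 (median 2.32, and 2.63 without the library labelled floxed 6). C4b (chromosome 17, 34728380 to 34743882, minus strand), the complement factor that opsonises targets, had values of 307 to 541 (median 425) in the other 6 floxed libraries, 2902 in the library labelled floxed 6 and 2126 to 12848 (median 5288) in the 7 cKO libraries. In cKO cerebellum C4b had a fitted log2 change of 3.24 (SE 0.47, adjusted p = 0.000598), and 3.72 without the library labelled floxed 6. The starter subunits C1qa (2.63), C1qb (2.51) and C1qc (2.43), the central factor C3 (2.94) and its receptors Itgam (1.56) and Itgb2 (2.31) rose. Fcgr4 (chromosome 1, 171018920 to 171029761, plus strand), an activating receptor for antibody, had values of 1.04 to 3.73 (median 2.64) in the other 6 floxed libraries, 47.1 in the library labelled floxed 6 and 47.5 to 183 (median 81.1) in the 7 cKO libraries. The fitted log2 change of Fcgr4 was 4.19 (SE 0.61, adjusted p = 0.000580), and 4.79 without the library labelled floxed 6. Cd300lb, an activating receptor of myeloid cells, went from a range of 2.66 to 13.5 (median 7.78) in the other floxed libraries to 104.9 to 444 (median 249.3) in cKO libraries (log2 fold 4.04 with SE 0.66, adjusted p = 0.000862), with 193 in the library labelled floxed 6.

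Antigen presentation genes rose in both classes. Of 19 class I and immunoproteasome genes 18 rose (median 1.40), and of 8 class II genes 7 rose (median 2.31), with none lower in either. B2m, the light chain of class I molecules, rose from a range of 1371 to 1768 (median 1692) in the other floxed libraries to 4177 to 9028 (median 6199) in cKO libraries (log2 fold 1.75 with SE 0.26, adjusted p = 0.000622), the class I transactivator Nlrc5 by a log2 fold of 2.73 and the immunoproteasome subunit Psmb8 by 2.32. Cd74, the class II invariant chain, rose by 2.75 and the protease Ctss by 2.09, while the class II transactivator Ciita did not pass (0.88, adjusted p = 0.0606). Class I and class II genes belong to families of near-identical members, as do C4b, the Oas1 and the Bcl2a1 genes, and the split of shared reads within them is uncertain.

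Chemokine and cytokine genes had 17 of 19 higher and 1 lower (median 2.19), or 13 of 15 higher without the library labelled floxed 6, where fewer members could be tested. Ccl5 (chromosome 11, 83525778 to 83530518, minus strand), which attracts T cells and macrophages, had values of 0.969 to 3.17 (median 2.43) in the other 6 floxed libraries, 107 in the library labelled floxed 6 and 29.1 to 377 (median 109.9) in the 7 cKO libraries. For Ccl5 the fitted log2 fold came to 4.38 (SE 0.81, adjusted p = 0.00147), and 5.19 without the library labelled floxed 6. Cxcl10 (3.84), Ccl3 (3.39), Ccl4 (3.32) and Ccl2 (2.85) rose, and Cx3cl1, the neuronal ligand of Cx3cr1, fell (-0.59). Il6 was not tested, with at most 0.740 and 1.25 in floxed and cKO libraries, and Tnf and Il1b reached 33.0 and 53.6 in cKO libraries with too few libraries above the filter. Of 26 NF-kB and Toll-like receptor genes 19 rose and 2 fell (median 1.01), the count of falls being 1 without cKO 1, cKO 2, cKO 3, cKO 6, floxed 1, floxed 3, floxed 4, floxed 5 or floxed 7. The receptors Tlr1 (2.65), Tlr7 (2.30) and Tlr2 (1.90) and the adaptor Myd88 (other floxed 146 to 198 (median 161), cKO 332 to 545 (median 366), log2 fold 1.11) rose, and Nfkb1 did not pass (0.09, adjusted p = 0.422).

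Interferon-response genes rose without exception among those tested, 40 of 40, with a median log2 fold of 2.12 (2.47 without the library labelled floxed 6) and 38 to 40 rises when any 1 library was left out. The summed values of the list were 6021 to 12043 in the other 6 floxed libraries, 22789 in the library labelled floxed 6 and 16265 to 48715 in cKO libraries. Oas1g (chromosome 5, 120876142 to 120887613, minus strand), a sensor of double-stranded RNA that activates RNase L, had values of 0 to 14.6 (median 3.77) in the other 6 floxed libraries, 60.1 in the library labelled floxed 6 and 50.2 to 218 (median 73.9) in the 7 cKO libraries. The other floxed libraries were spread, from 0 upward, and all lay below the lowest cKO library. The fit gave Oas1g a log2 change of 3.99 (SE 0.80, adjusted p = 0.00216), and 4.66 without the library labelled floxed 6. Oas3, of the same family, rose from a range of 1.28 to 7.08 (median 2.64) in the other floxed libraries to 14.7 to 224 (median 60.2) in cKO libraries (log2 fold 3.69 with SE 0.59, adjusted p = 0.000831). The GTPase Mx1 (3.83), the ubiquitin-like modifier Isg15 (2.17), the membrane protein Ifitm3 (2.34) and the regulator Irf7 (2.94) rose, and the transducer Stat2 (0.42) rose. Of 17 cytosolic nucleic acid sensor genes 14 rose and none fell (median 1.10). Tmem173, which encodes STING, rose from a range of 41.8 to 49.8 (median 44.6) in the other floxed libraries to 150.5 to 228 (median 169.7) in cKO libraries (log2 fold 1.74 with SE 0.22, adjusted p = 0.000405). The RNA sensors Ddx58 (2.17) and Ifih1 (1.21), the DNA sensor Mb21d1 (1.10, cGAS) and the adaptor Mavs (0.67) rose, and Adar did not pass (-0.05, adjusted p = 0.597).

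Interferon acts on promoters through the interferon-stimulated response element, searched here as GAAA, any 2 bases and GAAA on both strands of the RefSeq window from 250 bases before to 50 after each gene's start (GRCm38.p6). Of the 40 interferon-response genes, 27 had a window and 19 of these (70.4%) held the letters, against 3.99% of all 27025 windows. Among genes with a window the share was 5.60% of those that rose, 3.03% of those that fell and 3.18% of those not called. The 100 bases before the start are shown for 4 genes that rose, chosen after their matches were seen, with the matching letters in capitals and each sequence on the coding strand of its gene.
Isg15, chr4:156200819-156200918, minus strand: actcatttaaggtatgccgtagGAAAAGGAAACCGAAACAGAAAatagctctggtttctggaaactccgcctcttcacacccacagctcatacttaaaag
Oas1g, chr5:120887614-120887713, minus strand: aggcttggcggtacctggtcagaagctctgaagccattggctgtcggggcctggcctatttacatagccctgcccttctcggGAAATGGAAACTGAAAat
Oas3, chr5:120777660-120777759, minus strand: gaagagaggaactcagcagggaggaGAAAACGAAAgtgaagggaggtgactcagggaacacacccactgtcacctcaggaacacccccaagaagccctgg
Fcgr4, chr1:171018826-171018925, plus strand: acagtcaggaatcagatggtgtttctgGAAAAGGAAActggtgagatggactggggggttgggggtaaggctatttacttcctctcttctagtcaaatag
Isg15 held 3 overlapping matches and Oas1g 2, while Oas3 and Fcgr4 held 1 each. Among the genes named by rule, the windows of B2m, Ctss, Eif2ak2, Ifitm3, Myd88 and Ncf1, which rose, also held the letters. So did those of Kcnj16, Egr4 and Eomes, which fell, and of Glul, which was not called. The core of the Yy1 binding motif, searched as AANATGGCG on both strands, lay in 2.76% of all windows, in 7.53% of those of genes that fell, 2.48% of those that rose and 5.19% of those not called, and in none of the 27 interferon windows. Among the genes named by rule, Srebf2 held this match. Matches are letters and not tested sites.

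Cell death and stress genes moved in part. In the BCL2 family 7 of 18 rose and 3 fell (median 0.31), with rises above the 19.4% and falls below the 19.6% of all genes. The p53-induced killer Pmaip1 (Noxa) rose from a range of 15.1 to 27.6 (median 20.04) in the other floxed libraries to 75.4 to 137 (median 116) in cKO libraries (log2 fold 2.09 with SE 0.36, adjusted p = 0.00100), with Bbc3 (Puma, 0.65) and Bax (0.43). Bcl2a1b and Bcl2a1d, survival genes of myeloid cells, rose (2.69 and 3.13). Bok fell from a range of 459.5 to 703 (median 482) in the other floxed libraries to 96.4 to 208 (median 120.0) in cKO libraries (log2 fold -1.79), and Bcl2 (0.15) and Mcl1 (0.09) did not pass (adjusted p = 0.340 and 0.360). Of 24 caspase, death receptor and necroptosis genes 14 rose and 1 fell (median 0.55). The necroptosis effector Mlkl rose from a range of 3.56 to 8.53 (median 4.72) in the other floxed libraries to 25.1 to 70.8 (median 43.3) in cKO libraries (log2 fold 2.41 with SE 0.41, adjusted p = 0.00101) and its activator Ripk3 by 1.65. Casp8 (1.35) and the pore former Gsdmd (1.80) rose, and Casp9 fell (-0.56). The count of falls was 2 without cKO 6.

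Trp53 rose from a range of 417 to 506 (median 468) in the other floxed libraries to 605 to 1005 (median 779) in cKO libraries (log2 fold 0.65 with SE 0.13, adjusted p = 0.00176). Of 23 genes in the list of Trp53 and its targets 13 rose and 4 fell (median 0.43), with falls below the 19.6% of all genes. The cell cycle inhibitor Cdkn1a (1.23), Eda2r (2.75), Gdf15 (1.49) and the nuclease Aen (0.57) rose, while Sesn2 (-0.78) and Btg2 (-0.54) fell. Replication and mitosis genes had 13 of 25 higher and 2 lower (median 0.72), the count of falls being 1 without cKO 1 or floxed 1. Mki67, a marker of cycling cells, rose by 2.31, the mitotic kinase Plk1 from a range of 22.4 to 50.4 (median 31.6) in the other floxed libraries to 81.6 to 161 (median 94.6) in cKO libraries (log2 fold 1.47 with SE 0.24, adjusted p = 0.000919) and Mcm3, a subunit of the replication helicase, by 1.14. Pcna (0.10) and Ccnd1 (0.12) did not pass (adjusted p = 0.558 and 0.503), and Ccne1 and Mcm5 fell (-0.63 and -0.53).

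For oxidative stress, genes that make superoxide in phagocytes rose, while most antioxidant genes did not pass the test. Rises in the phagocyte NADPH oxidase included Cybb (2.78), Cyba (1.73), Ncf1 (2.33), Ncf4 (2.30) and Rac2 (2.15), while neuronal Nos1 fell (-1.57) and Nos2 did not pass (-0.05, adjusted p = 0.908). Ncf1, a cytosolic organiser of the oxidase, had values of 42.6 to 73.1 (median 63.3) in the other 6 floxed libraries, 263 in the library labelled floxed 6 and 229 to 685 (median 389) in the 7 cKO libraries. Of 32 antioxidant and glutathione genes 7 rose and 3 fell (median 0.11), with 12 rises under scaling to totals. The share of rises was near the 19.4% of all genes, and that of falls below the 19.6%. The regulator Nfe2l2 rose from a range of 359 to 421 (median 393) in the other floxed libraries to 498 to 935 (median 611) in cKO libraries (log2 fold 0.65), with Hmox1 (0.69), Gpx1 (0.60) and Gstp1 (0.67). Its target Nqo1 did not pass (-0.38, adjusted p = 0.0588), and Gstm1, a glutathione transferase of astrocytes, fell from a range of 4104 to 5175 (median 4604) in the other floxed libraries to 1470.0 to 2862 (median 1809) in cKO libraries (log2 fold -1.04). Among 14 metallothionein and iron genes 6 rose, including ceruloplasmin (Cp, 1.33), Mt1 (0.90), Mt2 (1.09) and the ferritin genes Fth1 (0.77) and Ftl1 (0.66), and Heph fell (-1.11). The count of falls there was 3 without cKO 2 and 2 without floxed 5.

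Markers of the other cell types were measured for the whole tissue. Of 20 myelin genes 3 rose and 3 fell (median 0.14), with the iron carrier Trf higher (1.05) and Tspan2 lower (-0.68), and Mbp (0.70) not passing (adjusted p = 0.110). Among 16 genes of oligodendrocyte precursors and newly formed cells 5 fell, led by Gpr17 (-1.42), and Bmp4 rose (0.96), the count of rises being 0 without floxed 1 and 2 without floxed 6. Few endothelial genes passed the test, with 1 higher and 1 lower of 19 (median 0.12), and mural cell genes had 1 higher and 1 lower of 12 (median 0.20). The myelin, endothelial and mural shares were below the 19.4% of rises and 19.6% of falls over all genes. The mural counts were 2 without cKO 2 or cKO 6 and 3 without cKO 3 for rises and 3 without cKO 4 and 2 without floxed 6 for falls. Meningeal fibroblast and matrix genes rose, 14 of 16 (median 1.03), with Col1a1 from a range of 379 to 549 (median 457) in the other floxed libraries to 1177 to 2999 (median 1897) in cKO libraries (log2 fold 1.85 with SE 0.28, adjusted p = 0.000633) and Dcn from a range of 306 to 572 (median 418) in the other floxed libraries to 1649 to 4099.6 (median 2240.1) in cKO libraries (log2 fold 2.12). Their summed values were 8390.5 to 10409.5 in the other 6 floxed libraries, 15139.8 in the library labelled floxed 6 and 14135 to 65809.8 in cKO libraries, so that more meninges in the dissected tissue and more matrix RNA cannot be told apart.

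Choroid plexus and ependymal genes varied widely between libraries of both genotypes, with summed values of 4269 to 96793 in the other 6 floxed libraries, 54578 in the library labelled floxed 6 and 4514 to 354992 in cKO libraries. Foxj1 (0.77) and Dynlrb2 (1.01), genes of cilia, rose, and the count of rises was 0 without cKO 1, cKO 4, floxed 1, floxed 2, floxed 3, floxed 4, floxed 5 or floxed 7 and 1 without cKO 2, cKO 5 or cKO 7. The count of falls was 1 without cKO 4. Of 5 blood cell genes none passed the test (median -0.75), the count of falls being 1 without cKO 7 or floxed 7. Genes of forebrain and midbrain neurons had 4 lower and 2 higher of 18 (median -0.32). The share of falls was near the 19.6% of all genes, and that of rises below the 19.4%. The rises were Th (2.63), which encodes tyrosine hydroxylase, and Tac1 (1.81). Th was not low, at 267 to 3837 in floxed and 1221 to 7213 in cKO cerebellum, against at most 787 in midbrain libraries. The dopamine transporter Slc6a3 of midbrain neurons reached at most 3.05 and 6.52 in floxed and cKO libraries. The counts were 1 without cKO 1, cKO 2, cKO 5, floxed 3, floxed 4, floxed 5 or floxed 7 for rises and 2 without floxed 1 or floxed 2 for falls. Nuclear respiratory chain genes had 5 of 31 lower and none higher (median -0.06), the count of falls being 8 without cKO 7. Unfolded protein and heat shock genes had 1 higher, the stress factor Atf3 (other floxed 29.1 to 70.5 (median 48.0), cKO 92.9 to 338 (median 204), log2 fold 1.85), and 3 lower of 19 (median -0.13). The count of falls there was 1 without floxed 1, floxed 3, floxed 4 or floxed 7 and 5 without floxed 6, and that of rises 3 without cKO 6. Ribosomal protein genes had 3 of 32 higher and none lower (median 0.27), the count of rises being 6 without cKO 2 and 7 without cKO 6 and 1 without cKO 7, floxed 3, floxed 4 or floxed 7 and 5 without floxed 6. It was 8 under scaling to totals, 13 in 1 fit of all 6 groups and 0 with estimated reads as a covariate. With all 14 libraries, the shares of the respiratory chain, heat shock and ribosomal lists were below the 19.4% and 19.6% of all genes.

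Scaling to equal library totals moved further list counts by more than 1.5 times. Falls of granule neuron genes went to 3 and of respiratory chain genes to 3. Rises went to 2 for astrocyte markers, 2 for the glutamate and GABA cycle, 3 for serine and glycine genes, 2 for glycogen and glycolysis, 1 for AMPA and NMDA receptors, 2 for oligodendrocyte precursors, 2 for mural cells and 3 for the respiratory chain. The median turned positive for the Yy1 partners (0.032), the serine and glycine genes (0.012) and the respiratory chain (0.013).

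**Figure D3:**
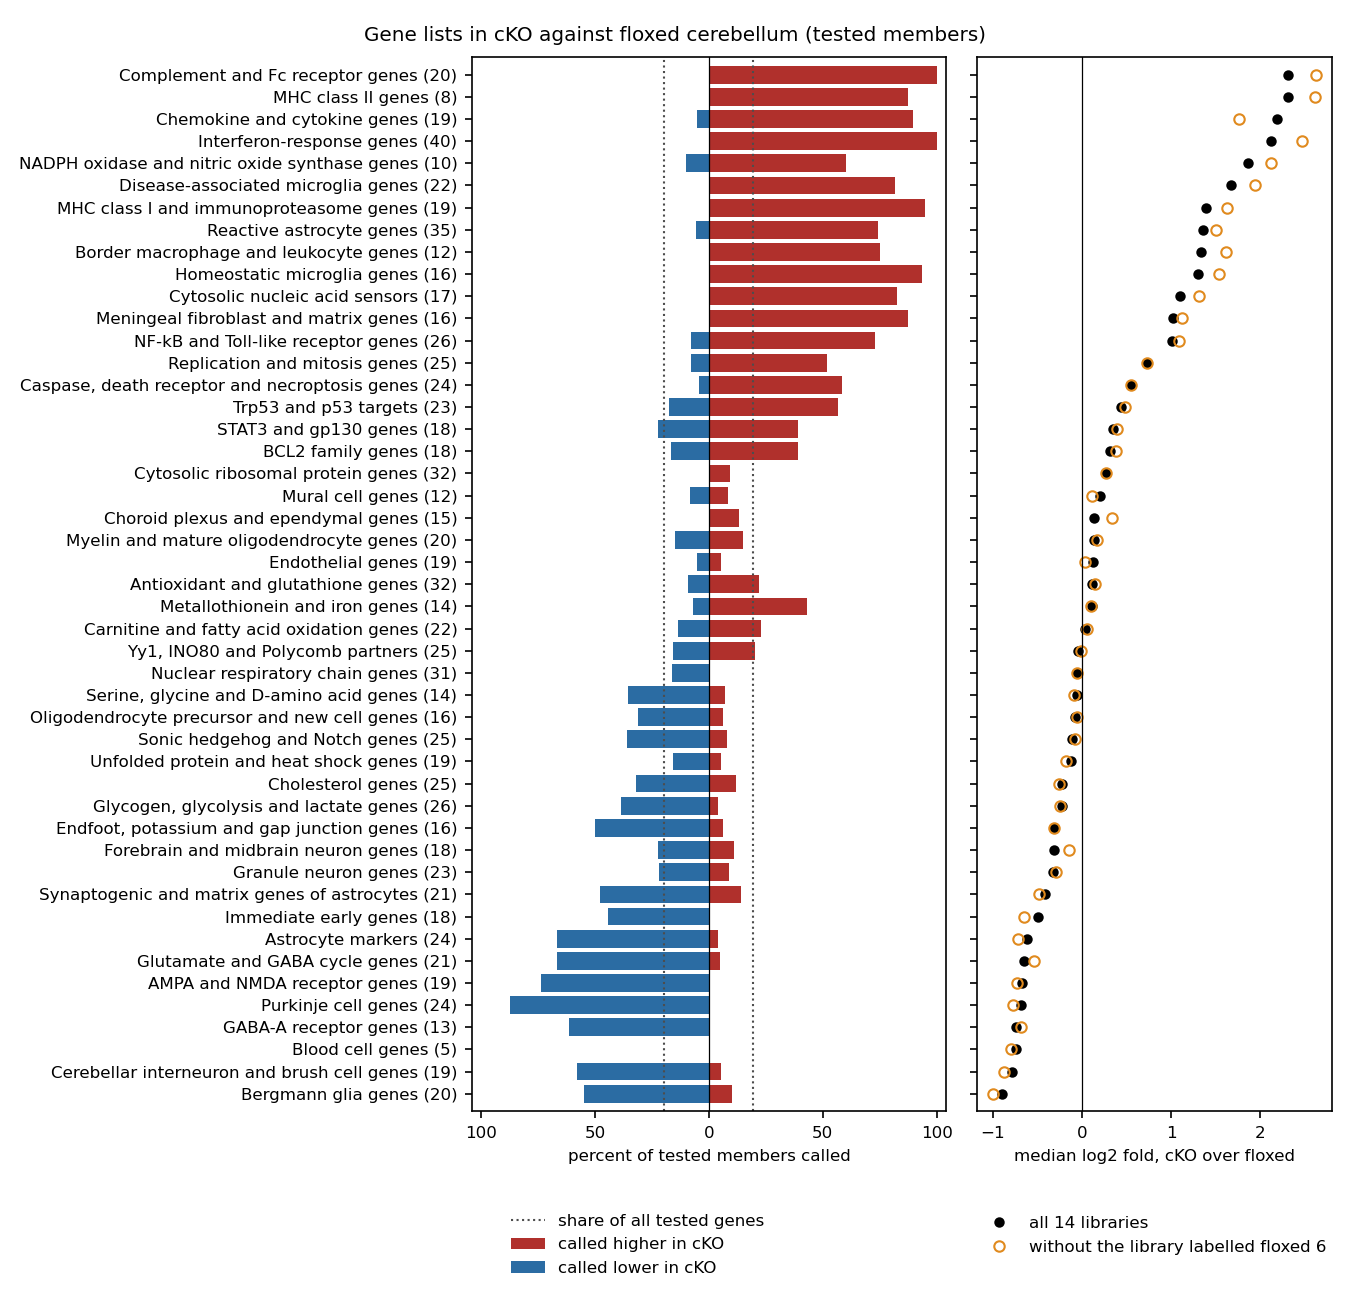
For 47 gene lists (tested members in brackets), the left panel gives the percent of tested members called higher (red) or lower (blue) in cKO cerebellum, with dotted lines at the shares of all tested genes (19.4% and 19.6%). The right panel gives the median log2 fold of the members with all 14 libraries (black) and without the library labelled floxed 6 (orange ring), from the complement list at the top to the Bergmann glia list at the bottom.

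The cKO libraries differed among themselves. For each list, the mean log2 difference of a library from the other 6 floxed libraries was taken over the tested members. MHC class II genes stood highest in cKO 4 (4.06) and cKO 1 (3.55) and lowest in cKO 5 (1.38). Border macrophage and leukocyte genes had the same order at the top, with 2.78 and 2.67 against 0.71 in cKO 5. Interferon-response genes were highest in cKO 2 (3.45) and lowest in cKO 6 (1.53), and reactive astrocyte genes were also lowest in cKO 6 (0.61). Bergmann glia genes were more even, from -1.22 in cKO 7 to -0.87 in cKO 5. The libraries cKO 4 and cKO 7 shared lower granule neuron genes (-0.94 and -0.49), higher ribosomal protein genes (0.93 and 0.93) and higher endothelial genes (1.03 and 0.60). They were also the shallowest cKO libraries, with 13.6 and 6.82 M estimated reads. With estimated reads as a covariate, the count of falls was 2 for granule neuron genes. The count of rises was then 0 for ribosomal protein genes and 0 for endothelial genes. The part of depth in the library means given here was not tested. The library labelled floxed 6 had -0.69 for Bergmann glia genes, 2.20 for interferon-response genes and 1.49 for homeostatic microglia genes.

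**Figure D4:**
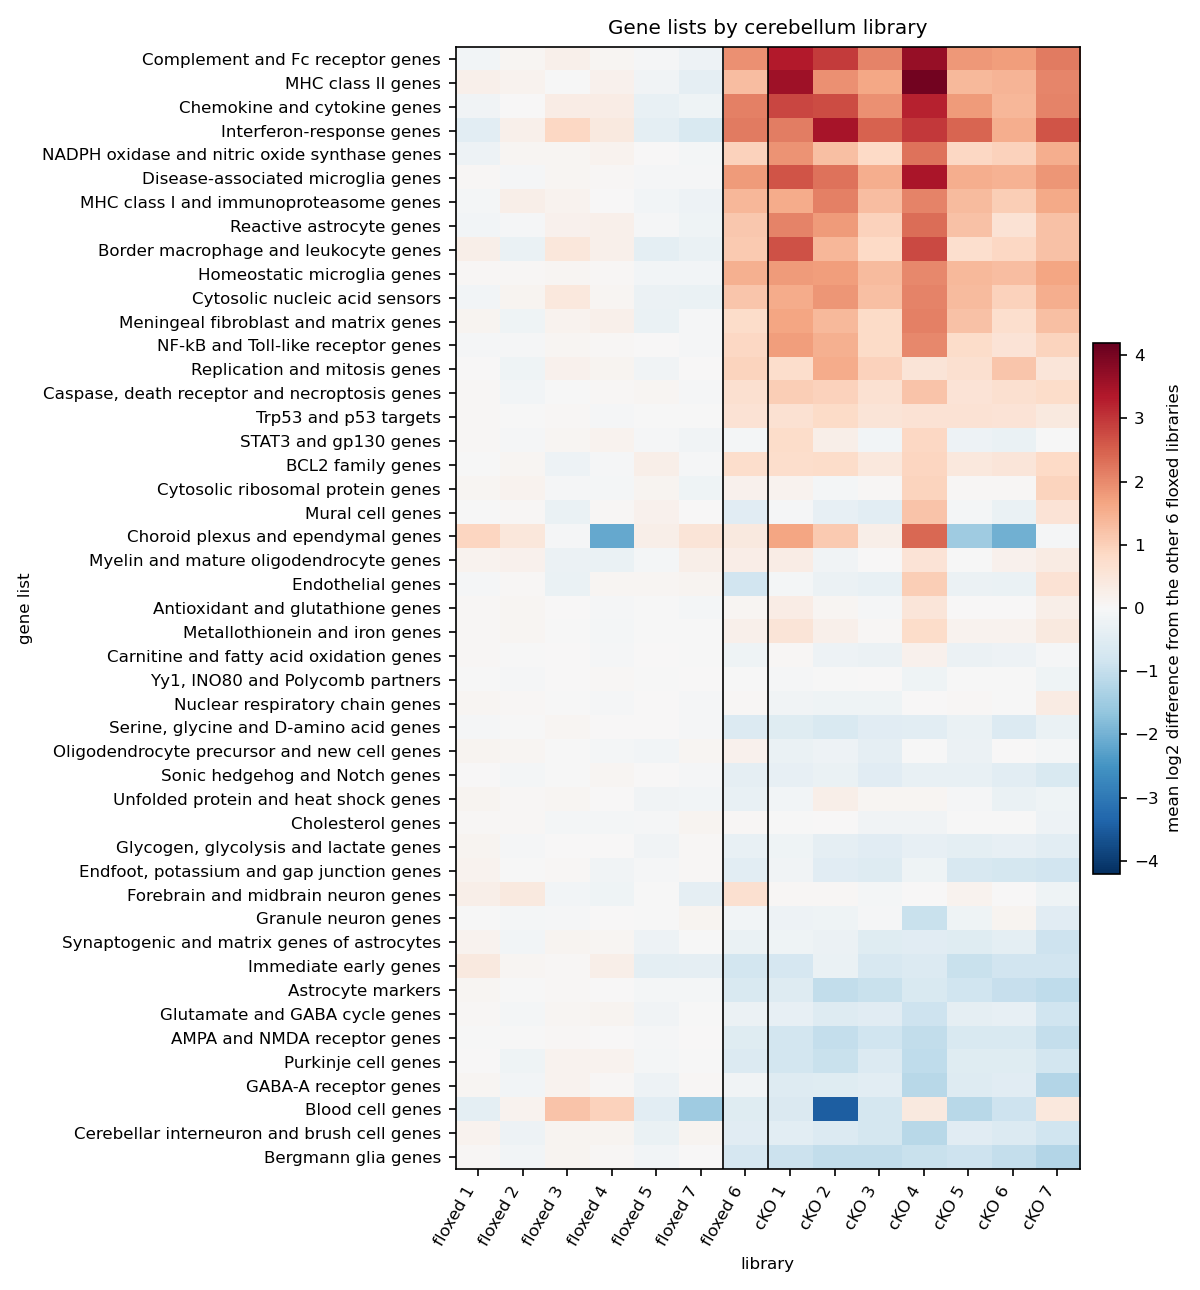
Mean log2 difference of each cerebellum library from the other 6 floxed libraries, over the tested members of each of 47 lists (rows) and by library (columns), red for higher and blue for lower. The library labelled floxed 6, between the black lines, has the colours of the cKO columns for the Bergmann glia, microglia and interferon lists, and choroid plexus genes vary in both genotypes, from -2.16 in floxed 4 to 2.42 in cKO 4.

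The remaining genes among the 10 largest rises and falls were of several kinds. Lgr6 (chromosome 1, 134983301 to 135105276, minus strand), a receptor for R-spondins that strengthens Wnt signalling, had values of 130.1 to 263 (median 186) in the other 6 floxed libraries, 18.5 in the library labelled floxed 6 and 6.62 to 19.1 (median 11.6) in the 7 cKO libraries. In cKO cerebellum Lgr6 had a fitted log2 change of -3.53 (SE 0.47, adjusted p = 0.000469), and -3.99 without the library labelled floxed 6. Ctxn3, which encodes the membrane protein cortexin 3, fell from a range of 700.3 to 1049.9 (median 772) in the other floxed libraries to 29.4 to 98.6 (median 60.8) in cKO libraries (log2 fold -3.29 with SE 0.56, adjusted p = 0.000986), with 46.0 in the library labelled floxed 6. Cyp2j9, a cytochrome P450, fell from a range of 801 to 974 (median 820.0) in the other floxed libraries to 66.0 to 84.5 (median 73.7) in cKO libraries (log2 fold -3.13 with SE 0.34, adjusted p = 0.000188), and its cKO values were the most even of these genes. Sap25, which encodes a protein of the Sin3 corepressor complex, was listed at 0 in several floxed libraries. It rose by a fitted log2 fold of 3.96 (adjusted p = 0.0234), with the groups overlapping and the call lost without floxed 3. Pcdha4, a clustered protocadherin that shares exons with its neighbours, had a log2 fold of -3.43 (adjusted p = 0.0206), with cKO values of 0 to 76.4 (median 8.20) overlapping the floxed values of 20.1 to 235 (median 100.2). It was listed at 0 in cKO 4, cKO 6 and cKO 7. Its call was lost with estimated reads as a covariate (limma adjusted p = 0.135) and with library weights (0.0924). Without the libraries numbered 5, 6 and 7 it was lost too (0.352). Oaz1-ps, a processed pseudogene of the antizyme gene Oaz1, had a log2 fold of -5.36 (adjusted p = 0.0325), with cKO values from 0 to 1468. It shares sequence with its parent gene, so its value is uncertain, and its call was lost without cKO 2, cKO 4, cKO 5, floxed 2, floxed 3 or floxed 4. With estimated reads as a covariate, Sap25 and Oaz1-ps also lost their calls (limma adjusted p = 0.0949 and 0.0779).

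The genotype effect in cerebellum was set against that in midbrain (7 floxed and 7 cKO libraries) and in cortex (6 floxed and 5 cKO libraries) by contrasts in 1 fit of all 6 groups. Libraries of 1 genotype and number in the 3 regions may come from 1 animal, which that fit leaves out. With genotype and number as a random block, 2312 genes were higher and 2584 lower against midbrain, and 1448 and 1736 against cortex. Of 16659 genes tested, the effect in cerebellum was above that in midbrain at 1735 (10.4%) and below it at 1997 (12.0%), and above that in cortex at 1066 (6.40%) and below it at 1348 (8.09%). The genes named next were from Yy1, Gfap and the 10 largest rises and falls, chosen for their size in cerebellum, which favours a larger effect there. Yy1 fell by more in cerebellum, by -0.63 (SE 0.15, adjusted p = 0.00243) against midbrain and -0.60 (SE 0.16, adjusted p = 0.00863) against cortex. Gfap did not differ past the threshold, at 1.31 (SE 0.50, adjusted p = 0.0569) and 0.28 (SE 0.54, adjusted p = 0.777), but against midbrain it passed with the random block (1.31, SE 0.43, adjusted p = 0.0222) and without cKO 3 (1.44) or cKO 6 (1.47). Without the library labelled floxed 6, which was picked on Gfap, the difference was 1.73. Each omission dropped a cerebellum library only, so the midbrain and cortex libraries numbered floxed 6 stayed in.

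Npy had log2 folds of -4.30 in cerebellum, 0.49 in midbrain and 0.63 in cortex, a difference of -4.79 (SE 0.37, adjusted p = 8.63e-11) and -4.93 (SE 0.40, adjusted p = 2.64e-10). Car6, Hpse and Serpina3n rose by more in cerebellum, by 6.05 (SE 1.20, adjusted p = 0.000485), 5.42 (SE 0.81, adjusted p = 1.64e-05) and 4.68 (SE 0.78, adjusted p = 7.34e-05) against midbrain. Gdf10 fell by more, by -2.19 (SE 0.50, adjusted p = 0.00198) against midbrain and -2.003 (SE 0.54, adjusted p = 0.0105) against cortex, although its folds in those regions were -1.05 and -1.24. Shisa9, Lgr6, Ctxn3, Dao and Cyp2j9 also fell by more in cerebellum than in both other regions, with Shisa9 at -2.50 (SE 0.27, adjusted p = 1.69e-07) against midbrain. In cortex Dao was near the floor, at 2.46 to 11.9 in floxed and 0.982 to 7.67 in cKO libraries. A fall of Dao could hardly show there, so its difference against cortex reflects low values in that region. Fcgr4 and Oas1g had log2 folds of 3.91 and 3.82 in cortex. Their differences of 0.28 (SE 0.88, adjusted p = 0.869) and 0.17 (SE 0.95, adjusted p = 0.933) did not pass, and neither did those of Cst7 in either contrast. Ccl5, Itgax, Cd300lb, Sap25 and Pcdha4 passed against midbrain and did not pass against cortex, although Ccl5, Itgax, Cd300lb and Pcdha4 passed there too without the library labelled floxed 6. Against cortex Cd300lb and Pcdha4 also passed with the random block (adjusted p = 0.0237 and 0.0318) and with the replicate block (adjusted p = 0.0353 and 0.0423). In the same way Cst7 and Fcgr4 passed against midbrain without that library (2.48 and 1.78). Those fits kept the midbrain and cortex libraries numbered floxed 6. These lay nearer the cKO mean at 55.3% and 46.3% of the genes called in their regions, shares without a baseline from other libraries. The omission was therefore uneven between regions. The calls of Ccl5 against midbrain were lost without cKO 2, cKO 4, floxed 1, floxed 2, floxed 3 or floxed 4, and those of Dao against midbrain without cKO 2 or floxed 1. The call of Cd300lb against midbrain was lost without cKO 2, cKO 3, cKO 5, cKO 6, cKO 7, floxed 1, floxed 2, floxed 3, floxed 4, floxed 5 or floxed 7, and that of Sap25 without cKO 1, cKO 4, cKO 5, cKO 7, floxed 1, floxed 3, floxed 5, floxed 6 or floxed 7.

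**Figure D5:**
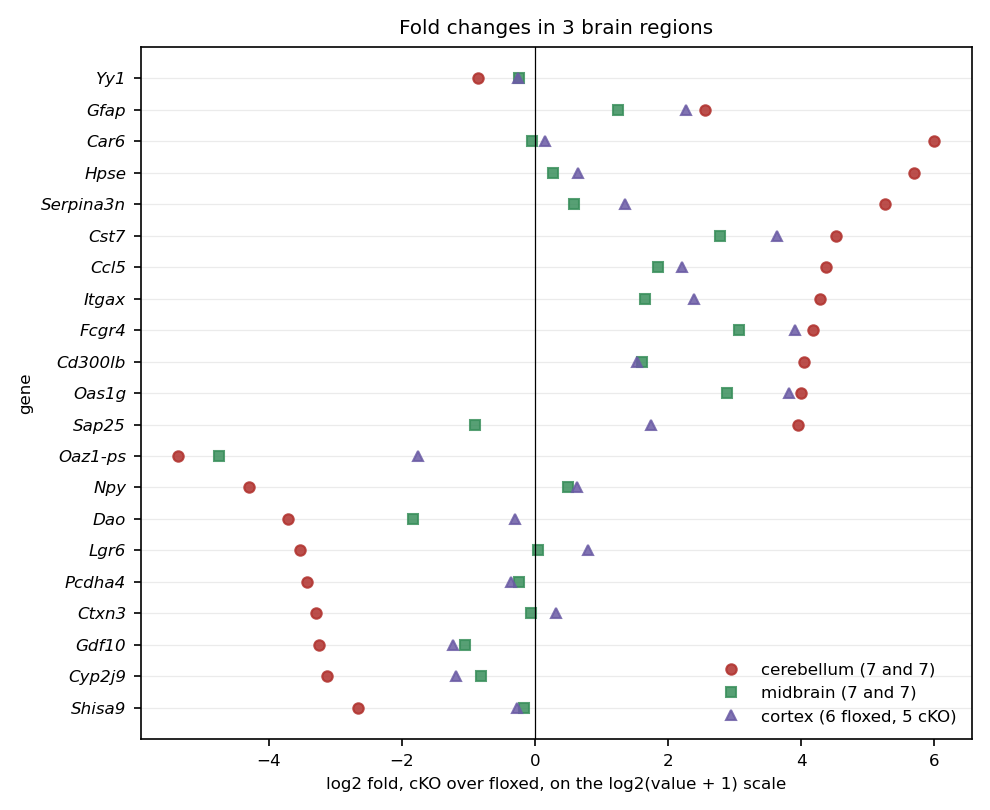
Log2 fold of cKO over floxed on the log2(value + 1) scale (horizontal axis) for Yy1, Gfap and genes among the 10 largest rises and 10 largest falls in cerebellum, in cerebellum (red circles), midbrain (green squares) and cortex (purple triangles). Npy is at -4.30 in cerebellum and to the right of 0 in the other regions, while Fcgr4 and Oas1g are at 3.91 and 3.82 in cortex.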

How the data were processed

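RNA-seq libraries of whole cerebellum from 7 floxed and 7 cKO mice, separate animals per the labels, were used with 25 midbrain and cortex libraries for region contrasts. The authors deposited 1 table of normalised signal per gene, not whole counts and already scaled between libraries; STAR, Salmon, DESeq2 and the mm10 build are named, without versions or order, in the submitters' processing notes. The kit does not mark strand, so antisense and overlapping genes cannot be separated. Of 24972 entries, 26 with names turned into dates (at most 0.351% of a library) were left out. Low values lay within 0.1 of whole steps in 87.6% of 75750 cases, which gave estimated reads but no count test.

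Genes at 10 or above in 7 or more libraries (5 for region contrasts) were tested on log2(value + 1) with limma 3.58.1 (R 4.3.3, trend and robust) and labelled sex as a covariate, at a Benjamini-Hochberg adjusted p of 0.05. A fold on this scale understates the change of low genes. Medians and figures used Python 3.11.15, pandas 2.3.3, numpy 2.4.6, scipy 1.17.1 and matplotlib 3.10.9. Names were matched to GENCODE for coordinates (24420 matched once, 97.9%) and to RefSeq promoter windows. The steps were tested on simulated data.

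Named genes were Yy1, Gfap and fixed cell markers, the 10 largest rises and falls with a mean value of 50 or more called with and without the library labelled floxed 6, and the called members of lowest p in each list (up to 2, or 4 where 8 or more were called). Other list members and the printed promoters were picked as examples after their values were seen. The members and all 47 lists were chosen with earlier results of these data known. Alternatives covered scaling, pseudocount, filter, covariates, variance settings, library weights, blocks, 1 fit of all groups and library omission. Some genes that the rules name are not reported here. The 2 libraries without a group were not used.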

Additional observations from a re-analysis of the deposited data

Results flagged for a closer look

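A gap between the lowest or highest library and the nearest of the other 6 in its group, above Dixon's 95% critical value for 7 samples as a share of the group's range, was found in 90 of 330 groups of 7 checked over the named genes. Chance gives about 1 in 20 for unrelated genes picked without regard to their values, which these genes were not. In 81 of the 90 the library was the one labelled floxed 6. Most named genes were picked for a difference between the genotypes, and this library was singled out on Gfap and Yy1. Its flags therefore add no separate evidence about it. The library labelled floxed 6 stood apart with normalised values of Gfap 25729, S100b 6120.3, Gdf10 465, Fabp7 3614, Hopx 2676, Car6 435, Hpse 389.8, Serpina3n 2036, Cst7 67.5, Ccl5 107, Itgax 70.6, Fcgr4 47.1, Cd300lb 193, Oas1g 60.1, Dao 178, Ctxn3 46.0 and Cyp2j9 132. Its values also stood apart at Cldn10 165, Gja1 1275, Svep1 462, Sorcs3 213, Cux2 803, Trf 31602, Olfml3 645, Cx3cr1 829.0, Csf1r 2221, Fcrls 456, Cd68 362, Csf1 1128, Ctsz 2243, Cd163 77.1, Ms4a7 17.5, Ptprc 107 and Ocln 321. Further values of this library were Dcn 1614, Col1a1 1465, Lum 234, Col3a1 1429, Ifi27 1894, Oas3 24.3, Ifitm3 1500.3, Tmem173 121, Eif2ak2 497, B2m 4984, Psmb8 448, Ctss 2162, H2-DMa 186, C4b 2902, Fcgr3 299, Itgb2 228 and Cxcl16 159. It was likewise separate from the other floxed libraries at Ccl6 96.7, Myd88 285, Nfkbie 259.6, Tlr1 45.4, Nfkb2 201, Amigo2 261, Nes 729, A2m 728, Stat3 1535, Cntfr 1962, Ncf1 263, Gstm1 1599, Gpx1 2206, Cp 855, Pmaip1 109.8, Bcl2a1b 72.7 and Mlkl 32.9. The remaining values of this library were Tnfrsf1a 635, Gsdmd 84.3, Trp53 674, Mcm7 800.1, Ccne1 179, Pygm 622, Ppp1r3c 339.6, Acot11 619.7, Bbox1 17.1, Cspg5 1937, Sparc 12417, Sparcl1 25546 and Gria1 5616.

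Other libraries stood apart at single genes, with normalised values in brackets, namely Fabp7 in cKO 5 (4775), Sap25 in floxed 2 (31.7), Svep1 in cKO 6 (935), Cd68 in cKO 4 (1753), Ctsz in cKO 4 (6294), Anpep in cKO 4 (398), Dcn in cKO 4 (4099.6), Bcl2a1b in cKO 4 (299.5) and Gsdmd in cKO 4 (479).

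The cKO effect differed between regions at 16 named genes against midbrain and 11 against cortex, by a contrast within 1 limma fit of all 6 groups. The log2 differences of cerebellum minus midbrain were Yy1 -0.63, Car6 6.05, Hpse 5.42, Serpina3n 4.68, Ccl5 2.53, Itgax 2.63, Cd300lb 2.43, Sap25 4.86, Npy -4.79, Dao -1.88, Lgr6 -3.57, Pcdha4 -3.20, Ctxn3 -3.24, Gdf10 -2.19, Cyp2j9 -2.32 and Shisa9 -2.50. Those of cerebellum minus cortex were Yy1 -0.60, Car6 5.86, Hpse 5.04, Serpina3n 3.91, Npy -4.93, Dao -3.42, Lgr6 -4.32, Ctxn3 -3.61, Gdf10 -2.003, Cyp2j9 -1.95 and Shisa9 -2.40. These genes were chosen for large effects in cerebellum, and Dao was near the floor in cortex.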

How the results depend on the processing

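The counts of genes called in cerebellum kept within 1.5 times of 2968 higher and 3012 lower under every alternative run, from 2034 to 4026 higher and from 2096 to 4507 lower. The 2 lower ends came without the libraries numbered 5, 6 and 7 of both genotypes and with the replicate block. Leaving out 1 library at a time gave 2371 to 3139 higher and 2281 to 3282 lower. Omissions of 1 cerebellum library gave 1452 to 2341 higher and 1707 to 2450 lower genes for cerebellum against midbrain, and 801 to 1585 and 1110 to 1754 against cortex. Over the named genes and settings, 4689 values kept direction and side of the threshold, 68 lost the call, 18 gained one and 5 changed sign. Over the region differences these numbers were 782, 29, 20 and 5. Of the list counts 2389 stayed within 1.5 times and 243 did not.

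The sign changed for genes that were not called or were unstable. Pcp2 went from 0.14 to -0.11 with estimated reads as a covariate, -0.091 with library weights and -0.13 without the libraries numbered 5, 6 and 7. Neurod1 went to 0.0054 with library weights and Glul to 0.030 with equal library totals. The region difference of Oaz1-ps against midbrain went to 0.28 without cKO 2, 0.28 without cKO 4 and 0.40 without cKO 5, over a range of -1.43 to 0.40. That of Oas1g against cortex went to -0.34 without floxed 1 and -0.16 without floxed 7, over a range of -0.34 to 0.85. The cause was not tested.

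With the replicate number as a block, 2237 genes were higher and 2096 lower in cerebellum, 1770 and 1996 against midbrain, and 1052 and 1343 against cortex. Deviations of same-numbered floxed and cKO libraries correlated at 0.2144, -0.2633, 0.1935, -0.313, -0.1207, -0.2398 and -0.1482, and only numbers 1 and 3 matched their own number best. Whether same-numbered libraries shared a litter, day or batch was not tested. Depth is known only as an estimate, and values of a few reads carry the most error in cKO 7, the shallowest library.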
